A study of Mus musculus with 8 samples.

Results

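The clustered protocadherin genes of the mouse were followed in whole liver with and without deletion of Ctcf, the gene of the DNA-binding protein CTCF. Members were all genes whose symbol begins with Pcdha, Pcdhb or Pcdhg followed by a digit, or by a, b or c and a digit. The rule found 58 of the 52636 genes listed: 14 in the alpha cluster, of which Pcdhac1 and Pcdhac2 are C-type, 22 in the beta cluster, and 22 in the gamma cluster, with 12 of the A type, 7 of the B type and 3 of the C type. Separate identifiers, 2 in number, carried the symbol Pcdha11, so both were counted. Liver RNA was sequenced in 8 samples of C57BL/6 mice aged 8 weeks. Of these, 4 had the genotype CTCF fl/fl Albcre- (WT), with loxP-flanked Ctcf and no Cre, and 4 the genotype CTCF fl/fl Albcre+ (cKO), with the same alleles and Cre under the albumin promoter, which acts in hepatocytes and also in the precursors they share with bile duct cells. Whole liver also holds endothelial, stellate and immune cells, which that promoter is not known to mark, and no group carried Cre without the floxed alleles, so Cre itself and loss of Ctcf cannot be told apart. The labels do not say that the samples of a genotype came from separate mice, and the p-values below cover the spread between samples, which may be technical.

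Clustered protocadherins are cell adhesion proteins with cadherin repeats outside the cell, best known from neurons, where each cell uses its own combination and the combination serves as a cell surface identity. In the alpha and gamma clusters each gene has its own promoter and its own large first exon, the variable exon, which is spliced to constant exons shared by the whole cluster. The beta genes have a single coding exon each and no shared constant exons. CTCF and cohesin bind most of the variable promoters and the distal enhancers, and bring a chosen promoter to its enhancer. The C-type genes lie nearest the constant exons and are used in a more uniform way across cells than the A, B, alpha and beta genes.

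All 58 members were matched by symbol to positions on chromosome 18 of GRCm38 (mm10) in RefSeq's annotation. The alpha genes lay between 36930285 and 37188897, the beta genes between 37264998 and 37521419, and the gamma genes between 37661775 and 37841873, where the transcripts of the gamma genes end in the same constant exons. Totals of assigned counts ranged between 43.9 M and 57.3 M a library, with a mean of 46.1 M ± 2.93 in WT and 52.4 M ± 3.29 in cKO (SD, n = 4). A count of 0 in a library of that depth allowed up to 0.0524 to 0.0683 CPM, the count scaled to a common library total, taking 3 counts as the limit. Limits of this kind cover counting error only. Markers of hepatocytes summed to 74750 to 103500 CPM in WT, as the tissue label says. Ctcf was at 16.8, 16.9, 16.3 and 16.0 CPM in WT and at 12.02, 13.1, 12.7 and 10.9 CPM in cKO, a log2 change of -0.44 (SE 0.08, edgeR adjusted p = 0.00177), with genotypes that did not overlap. The labels do not say which exons of Ctcf were removed, and whole liver pools deleted and undeleted cells.

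Most members were nearly silent in liver. Of the 58 members 44 had a count in at least 1 library and 14 had none, which were 12 alpha genes, Pcdhb1 and Pcdhb2. A count in all 8 libraries was found for 13 members, 44 stayed under 10 counts in every library, and only Pcdhgc3 and Pcdhgc4 reached 20. Pcdhgc4 alone held 68.5% ± 3.25 of the members' counts in WT and 62.9% ± 3.90 in cKO (SD, n = 4). Per length, Pcdhgc4 stood at 3.14 TPM, a level per transcript length scaled to a common total, in WT, Pcdhgc3 at 0.198 TPM, Pcdhb22 at 0.065 TPM, and no mean of a member outside the 3 tested passed 0.0525 TPM in either genotype. The number of members with a count was 31, 31, 33 and 28 in WT and 35, 34, 32 and 36 in cKO, ranges that overlap, and the cKO libraries were deeper. After thinning to the smallest total of 43.9 M the numbers were 27.9 to 32.7 in WT and 31.1 to 34.6 in cKO.

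**Figure D1:**
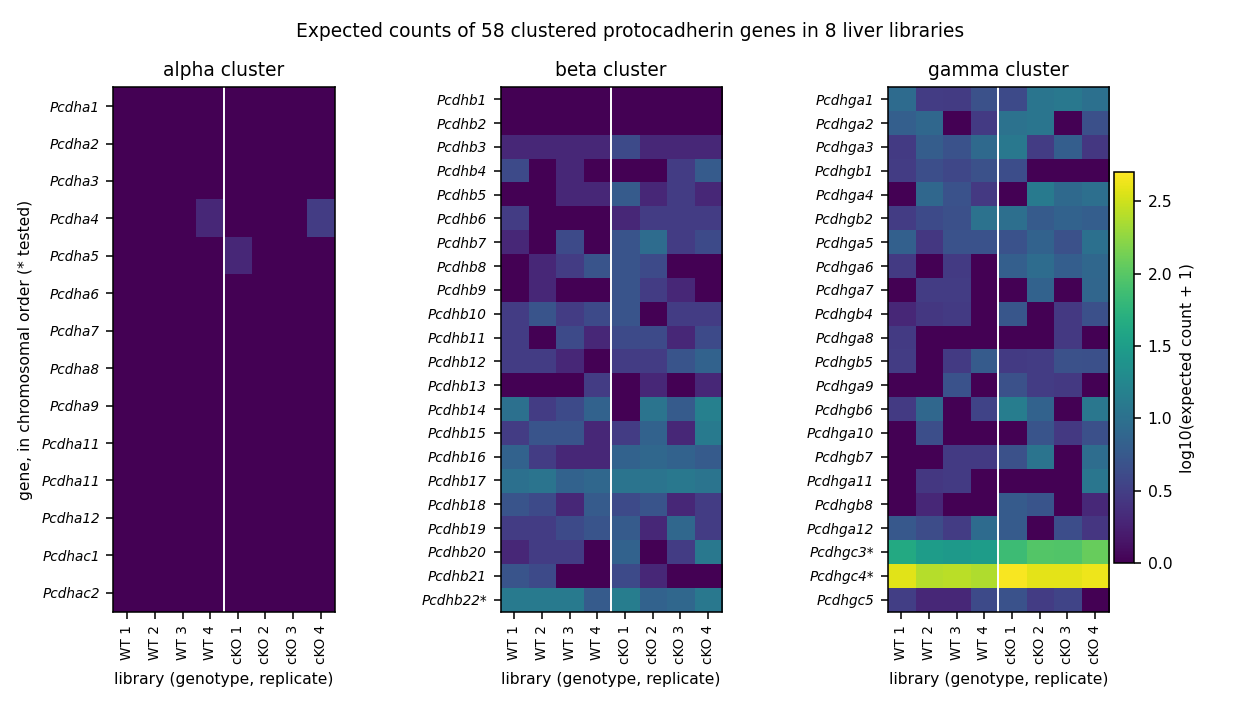
Expected counts of the 58 clustered protocadherin genes (rows, in chromosomal order within each cluster) in the 8 liver libraries (columns, with a white line between WT and cKO), coloured as log10(count + 1), with an asterisk at the 3 genes that were tested. Pcdhgc4 and Pcdhgc3 stand out in every library, the beta and the other gamma genes hold at most 14 counts in a library, and the alpha panel is empty apart from Pcdha4 and Pcdha5.

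Only 3 members, Pcdhgc4, Pcdhgc3 and Pcdhb22, had enough counts for the test, against 15562 genes of the whole table, and 55 did not enter it. Pcdhgc3 rose in cKO, at an adjusted p under 0.05 in edgeR's quasi-likelihood test, while Pcdhgc4 (unadjusted p = 0.0334, edgeR) and Pcdhb22 (unadjusted p = 0.287, edgeR) did not pass after adjustment. The background of such calls was high: 30.1% of all genes tested were called, 15.2% as higher and 14.9% as lower. With 3 members tested, 1 call is near that background and is no result about the family. In the groups' ranges, 2 of the 44 members with a count, Pcdhgc3 and Pcdhga6, did not overlap between genotypes, and both were higher in cKO. Among the 26668 genes with a count, 19.3% did not overlap and 9.51% did so in the higher direction. The mean CPM was higher in cKO for 34 of the 44 members with a count (77.3%) and for 49.0% of all genes with a count. The gamma genes share reads, so that these 44 are not separate observations.

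Pcdhgc3 (ENSMUSG00000102918, chromosome 18, 37806410 to 37841873) is the C-type gamma gene known to be used most widely outside neurons, and its protein can bind the Wnt pathway scaffold Axin1. It had 43.1, 30.4, 27.4 and 29.8 expected counts in the WT libraries and 69.3, 94.6, 92.2 and 115.8 in the cKO libraries. Scaled to depth these were 0.877, 0.708, 0.619 and 0.703 CPM in WT and 1.32, 1.82, 1.70 and 1.98 CPM in cKO. Every cKO library was above every WT library, and the lowest cKO value, in replicate 1, was still above the highest WT value, also in replicate 1. The mean was 0.727 CPM ± 0.108 in WT and 1.70 CPM ± 0.280 in cKO (SD, n = 4), a log2 change of 1.23 (SE 0.19, 95% interval 0.80 to 1.65, edgeR adjusted p = 0.00114), or 2.34-fold (1.74 to 3.14). Of all genes tested, 3.59% had a smaller p. The call held in all 21 alternative analyses, including each library left out in turn, with log2 changes of 1.15 to 1.33 on leaving out a library. It was smaller on scales that add a constant to low TPM values, at 0.29 for log2(TPM + 1) and 0.91 for log2(TPM + 0.1), with means of 0.198 TPM in WT and 0.46 TPM in cKO.

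Pcdhgc4 (ENSMUSG00000023036, 37815079 to 37841873), a C-type gene known to be needed for the survival of some neurons, carried most of the signal of the locus. It had 376, 248.7, 265.5 and 238.6 counts in WT and 471.4, 385.1, 389.5 and 432.1 in cKO. In CPM these were 7.67, 5.88, 6.07 and 5.60 in WT and 9.02, 7.38, 7.21 and 7.36 in cKO. Replicate 1 was the highest library of either genotype, and WT 1 lay above 3 of the 4 cKO libraries, so that the ranges overlapped. The mean was 6.30 CPM ± 0.933 in WT and 7.74 CPM ± 0.853 in cKO (SD, n = 4), with a log2 change of 0.29 (SE 0.12, 95% interval 0.03 to 0.56, edgeR adjusted p = 0.0891), or 1.23-fold (1.02 to 1.48). Without WT replicate 1 the log2 change was 0.40 and passed (edgeR adjusted p = 0.0274), and without cKO replicate 1 it was 0.21 (edgeR adjusted p = 0.232). In TPM, which is not scaled by TMM, the values were 3.82, 2.97, 2.99 and 2.79 in WT and 5.01, 4.07, 4.18 and 4.27 in cKO, and did not overlap. There the log2 change was 0.38 on log2(TPM + 1), with limma adjusted p = 0.021. With library size alone as the scale it was 0.40 (edgeR adjusted p = 0.0295), but that scale also moved the median of all tested genes to 0.10, and relative to that median Pcdhgc4 stood at 0.30, as under TMM.

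Which part of the gamma locus the Pcdhgc4 value reports is uncertain. The transcript length that RSEM, the program that divided the reads, gave for Pcdhgc4 was 2272 to 2278 bases in all 8 libraries, although 3 transcripts are assigned to the gene. In an older annotation of another build, GENCODE M1, the 4-exon transcript of Pcdhgc4 has a first exon of 2905 bases and later exons of 2116 bases, so that 5021 bases would be the length of that transcript. The counts thus went almost wholly to a shorter transcript, and which exons it holds is not given in the sources used here. For Pcdhgc3 the length was 3780 to 4687 bases, and 4687 bases is the length of its 4-exon transcript in GENCODE M1. All 22 gamma genes had at least 1 fractional count, in 114 of 130 values above 0, which shows that reads were divided between them. The 127 beta values above 0 and the 3 alpha values were whole, within 0.001. An offset for length left the log2 change of Pcdhgc3 at 1.07 (edgeR adjusted p = 0.0039).

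Within a library, the ratio of the 2 genes is free of scaling between libraries. There were 11.5, 12.2, 10.3 and 12.5 counts of Pcdhgc3 per 100 counts of Pcdhgc4 in WT, and 14.7, 24.6, 23.7 and 26.8 in cKO. The WT libraries lay close together, and all 4 cKO libraries were above them, replicate 1 by little. The log2 ratio differed by 0.92 (exact two-sided permutation test over 70 assignments, p = 0.0286, the smallest this design allows). The ratio was chosen after the values of both genes had been seen, so this p is no separate support for the change. It also depends on how reads were divided between the gamma genes. In TPM the difference was 0.74. The other C-type gene of the cluster, Pcdhgc5, had 0 to 3.8 counts per library, with 7.22 counts in WT and 8.34 in cKO in all.

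**Figure D2:**
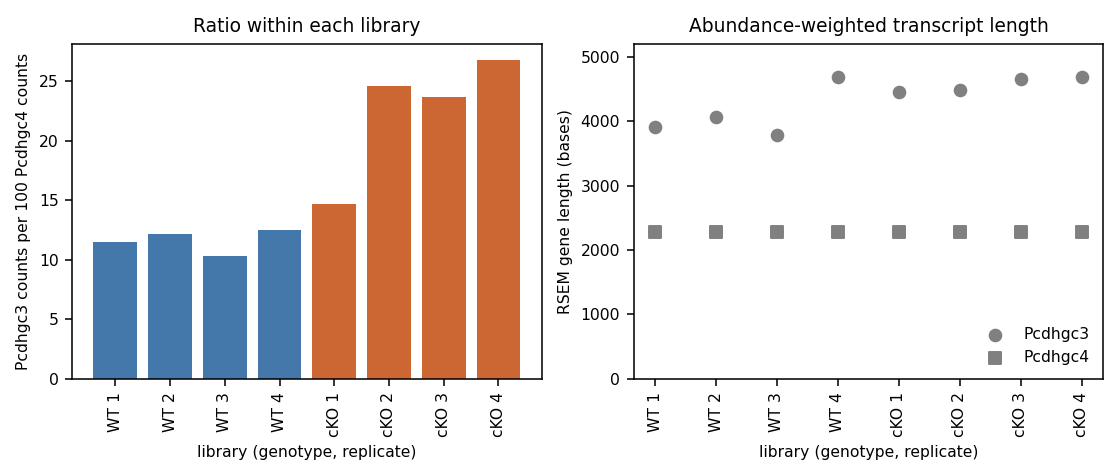
Left, expected counts of Pcdhgc3 per 100 counts of Pcdhgc4 in each library, with blue bars for WT and orange bars for cKO; right, the abundance-weighted transcript length in bases that the deposited tables give for each gene and library. The WT bars lie between 10.3 and 12.5 and the cKO bars between 14.7 and 26.8, while Pcdhgc4 stays at 2272 to 2278 bases and Pcdhgc3 varies from 3780 to 4687 bases.

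The 19 gamma genes of the A and B types were each near the limit of detection. Their highest mean levels were those of Pcdhga1, with 7.87, 2, 1.98 and 3.72 counts in WT and 3, 10.1, 10.99 and 8.87 in cKO, Pcdhgb2, with 17.9 counts over the WT libraries and 25.1 over the cKO libraries, and Pcdhga4, with 12.5 and 27.8. All 3 overlapped between genotypes. Pcdhga6 (ENSMUSG00000103793), picked out after its values were seen, had 1.86, 0, 1.87 and 0 counts in WT and 5.54, 7.98, 5.46 and 7.02 in cKO. It had too few counts for the main test. With no filter on low counts, which fitted 26569 genes and called 16.5% of them, Pcdhga6 was at a log2 change of 2.31 (SE 0.80, edgeR adjusted p = 0.0451). Pcdhgb7 and Pcdhgb1, also picked out after their values were seen, moved in opposite directions without a filter and did not pass, at 2.06 (SE 0.95) and -2.08 (SE 1.03), with edgeR adjusted p = 0.159 and 0.193. All 19 summed to 0.779, 1.17, 0.84 and 1.14 CPM in WT and 1.55, 1.67, 0.984 and 1.602 CPM in cKO. In cKO 3 libraries were above every WT library and replicate 3 was within their range. The ratio of the mean sums was 0.56 on the log2 scale.

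In the beta cluster 20 of 22 genes had a count, and 17 never reached 10 counts in a library. Pcdhb22 (ENSMUSG00000073591, 37518353 to 37521419), the last gene of the cluster, was the one tested. It had 12, 12, 12 and 5 counts in WT and 13, 6, 7 and 11 in cKO, with wide overlap. The mean was 0.230 CPM ± 0.077 in WT and 0.170 CPM ± 0.061 in cKO (SD, n = 4), and the log2 change of -0.43 (SE 0.39, 95% interval -1.27 to 0.41, edgeR adjusted p = 0.427) leaves both a fall and a small rise within its interval. Pcdhb17 had 9, 10, 6 and 7 counts in WT and 10, 10, 11 and 10 in cKO. Pcdhb14 varied more between libraries than Pcdhb17, with 9, 2, 3 and 6 counts in WT and 0, 10, 5 and 14 in cKO, of which 14 was the highest value of any member that was not tested. Pcdhb16 and Pcdhb15 had 10 and 11 counts over the WT libraries and 24 and 21 over the cKO libraries. The cluster summed to 1.26, 1.16, 1.05 and 0.96 CPM in WT and 1.49, 1.30, 1.05 and 1.55 CPM in cKO. These ranges overlapped through cKO replicate 3, and the log2 ratio of the means was 0.28.

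The alpha cluster gave 4 counts in 8 libraries: 1 count of Pcdha4 in WT replicate 4, 2 of Pcdha4 in cKO replicate 4 and 1 of Pcdha5 in cKO replicate 1. Both C-type alpha genes, Pcdhac1 and Pcdhac2, were at 0 in every library. A count of 0 over all 8 libraries, 393.9 M counts together, allows up to 0.00762 CPM, and up to 0.0163 CPM over the 4 WT and 0.0143 CPM over the 4 cKO libraries. A difference between genotypes within such limits was not detectable in the alpha genes at this depth.

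Summed over the cluster, the gamma genes were higher in every cKO library. The sum was 9.37, 7.78, 7.58 and 7.49 CPM in WT and 11.98, 10.9, 9.93 and 10.9 CPM in cKO, with means of 8.06 CPM ± 0.887 and 10.9 CPM ± 0.836 (SD, n = 4) and a log2 ratio of 0.44. A sum over the cluster does not depend on how reads were divided between its genes. Without Pcdhgc4 the gamma sum was 1.75 CPM ± 0.200 in WT and 3.196 CPM ± 0.417 in cKO, again without overlap and with a log2 ratio of 0.87. This partial sum includes Pcdhgc3 and does depend on how reads were divided between Pcdhgc4 and the other gamma genes. Pcdhgc3 made up 9.05% ± 0.507 of the gamma counts in WT and 15.7% ± 3.16 in cKO (SD, n = 4). For the 56 members other than Pcdhgc3 and Pcdhgc4 the sums overlapped, at 1.92 to 2.35 CPM in WT and 2.08 to 3.19 CPM in cKO. In bulk RNA a change in the number of cells that use these genes and a change in RNA per cell cannot be told apart.

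**Figure D3:**
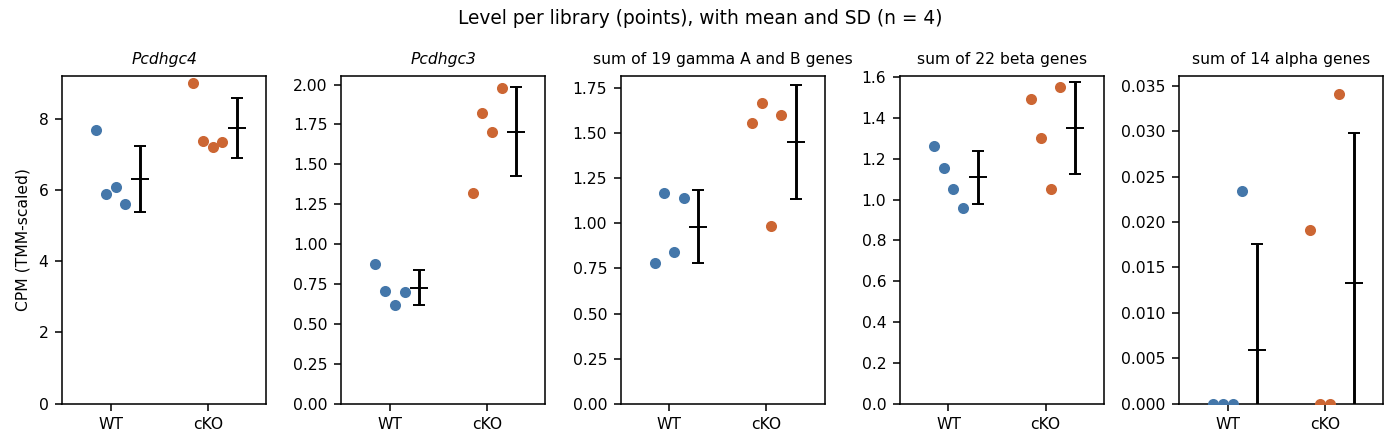
CPM scaled by TMM factors in each library (points, WT in blue and cKO in orange) with mean and SD (bars, n = 4) for Pcdhgc4, Pcdhgc3 and the sums of the gamma A and B, beta and alpha genes; each panel has its own axis from 0. Pcdhgc3 is the panel whose genotypes do not overlap, with WT at 0.619 to 0.877 CPM and cKO at 1.32 to 1.98 CPM, and the alpha panel rests on 4 counts in all.

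The genes around and between the clusters did not all move in 1 direction. Of 18 flanking genes, all tested, Fchsd1 rose, Hars2, Zmat2, Slc25a2 and Hdac3 fell, and 13 did not pass, with a median log2 change of -0.15 against -0.01 for all genes tested. The 27.8% called among them is near the 30.1% of all genes tested, so the count is no result about the neighbourhood. Their summed level was lower in cKO without overlap, at 421.5 to 431.9 CPM against 452.8 to 475 CPM in WT. Slc25a2, a mitochondrial ornithine carrier that lies between the beta and gamma clusters at 37637378 to 37638723, was at 0.510, 0.425, 0.435 and 0.328 CPM in WT and 0.134, 0.230, 0.148 and 0.153 CPM in cKO. The genotypes did not overlap and the log2 change was -1.35 (edgeR adjusted p = 0.00682). Its neighbour Taf7, a subunit of the general transcription factor TFIID, was at -0.14 (edgeR adjusted p = 0.451). Diaph1, a formin that nucleates actin, has its nearer end 1.73 kb after the gamma constant exons and was at -0.02 (edgeR adjusted p = 0.86). The histone deacetylase gene Hdac3, 95.1 kb after the gamma cluster, was at -0.37 (edgeR adjusted p = 0.00154).

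Fchsd1, whose product is an F-BAR protein, lies 115.6 kb after the gamma cluster. It was at 0.816, 1.23, 1.33 and 0.562 CPM in WT and 2.66, 2.53, 3.05 and 1.47 CPM in cKO, without overlap, a log2 change of 1.30 (edgeR adjusted p = 0.00664). It overlaps Rell2, which was at -0.78 (edgeR adjusted p = 0.179), and without a stated strand setting reads from the stretch they share cannot be told apart. Before the alpha cluster, Hars2, the mitochondrial histidyl-tRNA synthetase, was at -0.34 (edgeR adjusted p = 0.00299) and Zmat2, a zinc finger protein of the spliceosome, at -0.21 (edgeR adjusted p = 0.0244). The call of Zmat2 was lost in 10 of 21 alternative analyses, 5 of which were those without WT 1, WT 3, cKO 2, cKO 3 and cKO 4 (edgeR adjusted p of up to 0.0695). Hars, which overlaps Hars2, was at 0.13, Wdr55 at -0.16 and Dnd1 at -0.23. After the cluster, Arap3 was at -0.12, Pcdh1 at -0.14, Pcdh12 at 0.24, Rnf14 at 0.00, Gnpda1 at -0.44, Ndfip1 at 0.00 and Spry4 at -0.46, all log2 changes that did not pass. Gnpda1 passed in 2 of 21 alternative analyses, at -0.43 with DESeq2 on all 8 libraries (DESeq2 adjusted p = 0.032) and at -0.58 without WT replicate 4 (edgeR adjusted p = 0.004).

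**Figure D4:**
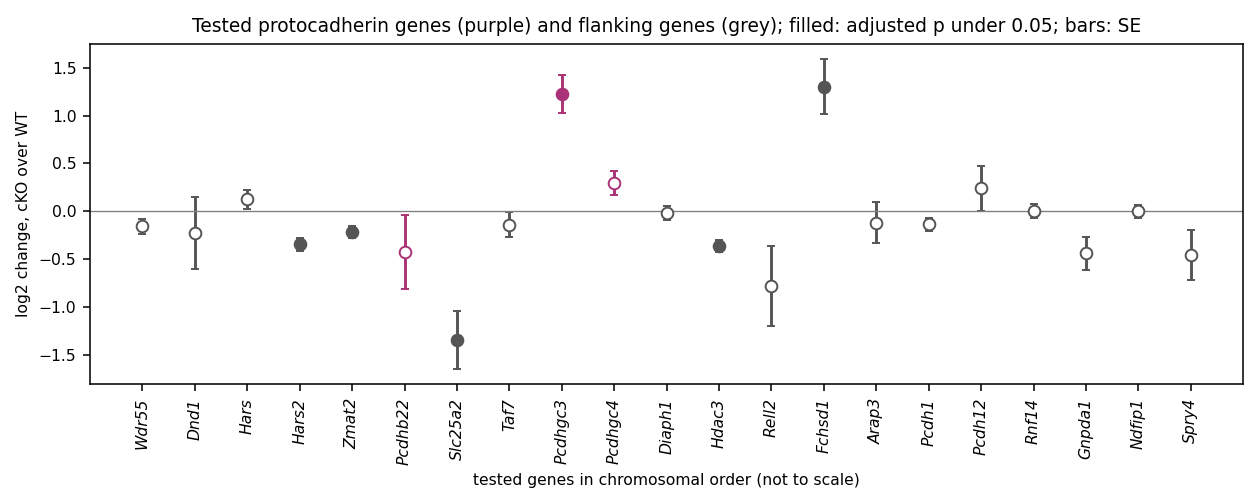
Log2 change in cKO over WT with its SE for the 3 tested protocadherin genes (purple) and the 18 flanking genes (grey), in chromosomal order and not to scale, filled where the edgeR adjusted p was under 0.05. Pcdhgc3, at 1.23, stands between Slc25a2 and Taf7 on 1 side, at -1.35 and -0.14, and Pcdhgc4 and Diaph1 on the other, at 0.29 and -0.02.

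Among 23 regulators of the locus, all tested, 5 rose and 2 fell, with a median log2 change of -0.07. These 30.4% are at the 30.1% called among all genes tested, so the count is no result about the regulators as a list. The cohesin subunit genes Stag1 and Stag2 rose by 0.63 and 0.63 (edgeR adjusted p = 8.74e-05 and 0.00105), without overlap between genotypes. Mau2, which works with Nipbl to load cohesin on DNA, fell by 0.39 (edgeR adjusted p = 0.00518), as did Ctcf. Of 17 tested genes among 18 for partners and signalling of protocadherins, 7 rose (41.2%, against 15.2% called higher and 30.1% called in all among the genes tested) and the other 10 did not pass, with a median of 0.21. Marcks, an actin-binding membrane protein, rose by 0.78 (edgeR adjusted p = 0.000439), the GTPase gene Rhoa by 0.49, Abi1 of the WAVE complex by 0.33 and the catenin gene Ctnnb1 by 0.41. In the list for cleavage and sorting of protocadherins, 2 of 10 rose and 1 fell, with a median of 0.05, again at the share called among all genes tested. Adam10, the protease that sheds their outer part, rose by 0.74 (edgeR adjusted p = 0.000951), the sorting receptor gene Sorl1 by 0.96 (edgeR adjusted p = 0.0188), and Psenen, a subunit of gamma-secretase, fell by 0.44 (edgeR adjusted p = 0.00178). Aph1b, another gamma-secretase subunit, was at 0.26 and did not pass.

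Protocadherins outside the clusters, and the related Cdhr genes, were also sparse: 6 of 16 were tested and Pcdh8, Pcdh10 and Cdhr3 had no count. Of the 6, 2 rose and none fell, and the median was 0.60. These are 33.3%, against 15.2% called higher and 30.1% called in all among the genes tested. With 6 genes tested, the count is no result about the list. Cdhr5, a protein of the microvillus border, rose from 81.7 CPM ± 6.67 to 124.8 CPM ± 5.46 (SD, n = 4), a log2 change of 0.61 (edgeR adjusted p = 0.000229). Pcdh7 was at 0.184, 0.33, 0.183 and 0.398 CPM in WT and 0.689, 0.806, 0.425 and 0.699 CPM in cKO, without overlap, a log2 change of 1.26 (edgeR adjusted p = 0.013). That call was lost with an offset for length, at 0.60, and on both TPM scales. Pcdh17 was at 0.75 (edgeR adjusted p = 0.244), and Pcdh1, 344 kb after the gamma cluster, was at 69.6 CPM in cKO against 76.4 CPM in WT.

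Among markers of liver cells other than hepatocytes, those of stellate cells and fibroblasts rose in the same samples as Pcdhgc3. Bile duct markers rose in part, 4 of the 8 tested. The summed levels of the bile duct, endothelial, mesothelial and Kupffer cell lists overlapped between genotypes. That of the neural and glial list did not, at 2.38 to 2.65 CPM in WT and 2.8 to 3.25 CPM in cKO. Of its 3 tested markers none passed, and their median log2 change was 0.29. Of 17 markers of stellate cells and fibroblasts, all tested, 16 rose (94.1%, against 15.2% of all genes tested) and 1 did not pass, with a median log2 change of 0.97. Their summed level was 311.7 to 350.1 CPM in WT and 545.5 to 714.2 CPM in cKO, without overlap. Lrat, the retinol esterifying enzyme of stellate cells, rose by 1.45 (edgeR adjusted p = 3.03e-06), and Dcn, Pdgfra and Lum by 1.57, 1.63 and 1.89. Pcdhgc3, at 1.23, lay above the list's median and below Lrat, Dcn, Pdgfra and Lum, and the markers' part in its change was not tested.

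Of 8 tested bile duct markers 4 rose (50.0%, against 15.2% of all genes tested) and 1 fell, with a median log2 change of 0.84. In all, 62.5% were called, against 30.1% of all genes tested. Tspan8, Cldn7 and Epcam rose by 2.65, 1.85 and 1.503 and Spp1 fell by 0.68. The list's summed level overlapped at 47.1 to 62.1 CPM in WT and 43.5 to 51.2 CPM in cKO. Spp1, the marker that fell, was a large part of that sum, with means of 34.9 CPM in WT and 21.8 CPM in cKO. Of 12 endothelial markers 1 rose (8.33% called, under the 30.1% of all genes tested). This was Tek, by 0.52 (edgeR adjusted p = 0.0484). Its call was lost in 11 of 21 alternative analyses, 6 of which left out 1 library, WT replicate 3 or 4 or any of cKO, with adjusted p of up to 0.136 in edgeR. Lyve1, Ptprb and Vwf were at 1.03, 0.56 and 0.37, and did not pass. Lyve1 passed in 6 of 21 alternative analyses (DESeq2, limma-voom, the fit without robust, both TPM scales, and without WT replicate 2, where it was at 1.46), and Ptprb in 4 (DESeq2, limma-voom and both TPM scales). The endothelial sum was 142.8 to 278 CPM in WT and 207.1 to 324.2 CPM in cKO. Of 4 tested mesothelial markers Wt1 rose, by 0.93 (lost without WT replicate 3 or cKO replicate 1 or 3, at 0.81 to 0.86), and Gpm6a, Upk3b and Msln were at 1.01, -0.31 and -0.01, with sums of 1.82 to 3.79 CPM in WT and 1.28 to 7.001 CPM in cKO. Gpm6a passed under library size alone and without cKO replicate 1, at 1.23 in the latter.

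Among neural markers, Snap25, a synaptic protein, had no count in any library, and the neural adhesion gene Ncam1 was at 0.75 (edgeR adjusted p = 0.14). Of 8 Kupffer cell markers 1 rose (12.5% called, under the 30.1% of all genes tested). This was Marco, by 0.61. Cd68, Timd4 and Adgre1 were at 0.19, -0.27 and 0.36, with Adgre1 passing at 0.80 without WT replicate 4. The Kupffer cell list summed to 230.3 to 349.1 CPM in WT and 193.1 to 316.2 CPM in cKO. Of 8 hepatocyte markers 5 fell and 1 rose (75.0% called, against 30.1% of all genes tested), with a median of -0.30. Ttr, Serpina1c and Fetub fell by 0.68, 0.62 and 0.58 and Cps1 rose by 0.58, a call lost without WT replicate 3 (edgeR adjusted p = 0.0525). The part of these cells in the values of Pcdhgc3 and Pcdhgc4 was not tested.

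**Figure D5:**
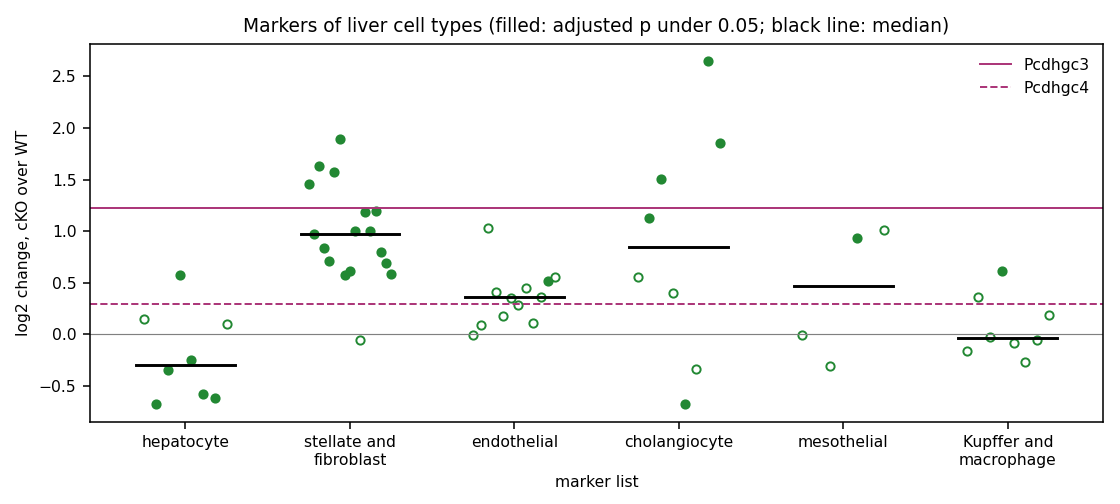
Log2 change in cKO over WT of the tested markers of 6 liver cell types (points, filled where the edgeR adjusted p was under 0.05), with the median of each list as a black bar and Pcdhgc3 (solid) and Pcdhgc4 (dashed) as purple lines at 1.23 and 0.29. The 17 stellate cell and fibroblast markers have a median of 0.97, the 8 bile duct markers one of 0.84 and the 12 endothelial markers one of 0.36.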

How the data were processed

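Per the labels' protocols, RNA of frozen liver was prepared with Trizol and the Illumina TruSeq kit for RNA. The submitters' processing notes name STAR 2.5.1, RSEM and mm10; for RSEM's version, the annotation and strandedness they are silent (not given in the sources used here). Expected counts, which need not be whole because shared reads are divided, and TPM were deposited by the authors per gene and library; FPKM was also deposited and not read. Expected counts were rounded for the tests. Genes were filtered with filterByExpr by genotype (minimum count 10, minimum total 15), scaled with TMM and compared with edgeR 4.0.16 (R 4.3.3; estimateDisp, robust glmQLFit, glmQLFTest), with Benjamini-Hochberg adjustment over all 15562 genes at 0.05. CPM used totals times TMM factors; sums were made from counts before rounding and have no test. Standard errors were derived from the F statistic. The script was tested on simulated data. Libraries of 1 genotype differed by more than sampling noise in every pair (smallest chi-square 28.4 per degree of freedom).

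The members and the lists were chosen with earlier results of these data known. Named were members with adjusted p under 0.05, the 5 of highest mean CPM per cluster, all C-type members, the flanking genes, Ctcf, and the 4 genes of smallest p in each other list, with the opposite gene of smallest p if it passed. Alternatives were upper quartile and DESeq2-type factors, no factors (library size alone), no filter, 1 CPM in 4 libraries, no robust fit, a length offset, a replicate block, DESeq2 1.42.0, limma-voom and limma 3.58.1 on log2(TPM + 1) and log2(TPM + 0.1) of genes over 0.1 TPM in 4 libraries, adjusted p under 0.01, and leaving out each library. Gene positions came from RefSeq's GRCm38.p6; exon lengths of GENCODE M1 came from another build. No sequence of the members is printed, and the results of some neural and glial markers are not reported here. Figures were drawn with matplotlib 3.10.9.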

Additional observations from a re-analysis of the deposited data

Results flagged for a closer look

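Among 156 sets of 4 libraries, 13 had 1 library far from the other 3, with a gap, as a share of the whole range, above Dixon's critical value; chance alone gives about 1 in 20. Of the members, Pcdhgc4 was at 9.02 CPM in cKO replicate 1 against 7.21 to 7.38 CPM in the others. The gamma sum was at 9.37 CPM in WT replicate 1 against 7.49 to 7.78 CPM, and the sum of the gamma A and B genes at 0.984 CPM in cKO replicate 3 against 1.55 to 1.67 CPM. Pcdhgc3 made up 9.83% of the members' counts in cKO replicate 1 against 14.9% to 15.8%, and 8.29% of the gamma counts in WT replicate 3 against 9.21% to 9.38%. Of the flanking genes, Pcdh1 was low in WT replicate 4 at 73.0 CPM, Zmat2 low in WT replicate 2 at 45.1 CPM, Hdac3 high in WT replicate 3 at 54.9 CPM and Hars2 high in cKO replicate 2 at 19.7 CPM. In the marker lists, WT replicate 4 stood apart for Marco at 9.69 CPM, Ttr at 6222 CPM and Cps1 at 2422 CPM, and cKO replicate 3 for Cldn7 at 1.15 CPM.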

How the results depend on the processing

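Pcdhgc3 was called higher in cKO under all 21 alternatives. The number of members called higher was 1, and 2 under library size alone, no filter, the replicate block and both TPM scales, with a range of 1 to 2 on leaving out a library; the second was Pcdhga6 without a filter and Pcdhgc4 in the others, WT replicate 1 being the library whose removal added it. The number of all genes called higher was 2367, and 3604 under library size alone, 3615 and 3616 with limma on log2(TPM + 1) and log2(TPM + 0.1), and 1165 at adjusted p under 0.01; the number called lower was 2322, and 1318, 818, 815 and 1050. The higher share of calls was 50.5%, and 73.2%, 81.5% and 81.6% under library size alone and the TPM scales, which moved the median of all genes to 0.10, 0.09 and 0.14. The difference in the log2 ratio of Pcdhgc3 to Pcdhgc4, a ratio chosen after the values were seen, was 0.82 to 1.11 on leaving out a library. Exact permutation gave p = 0.0571 without any 1 of the WT libraries (0.86 to 0.95) and 0.0286 without any 1 of the cKO libraries. Log2 ratios of the sums, which have no test, were 0.40 to 0.55 (gamma), 0.80 to 0.97 (gamma without Pcdhgc4), 0.47 to 0.72 (gamma A and B) and 0.21 to 0.50 (beta). With replicate number as a block, Pcdhgc3 was at 1.22 (edgeR adjusted p = 0.00403) and Pcdhgc4 at 0.30 (edgeR adjusted p = 0.0306); the counts of all genes became 2525 and 2419. The labels do not say that a number pairs libraries, and deviations of same-numbered libraries correlated weakly, at 0.0417 to 0.0567. However, 3 of 4 WT and 3 of 4 cKO libraries correlated best with their own number, at most a hint of pairing. The highest correlation of all, 0.0921, was between WT replicate 4 and cKO replicate 2, so the data do not settle whether numbers pair libraries. The calls of Ctcf, Hars2, Hdac3, Mau2 and Sorl1 were lost on both TPM scales. Where settings changed a call the cause was not tested. Depth limits the other 55 members, and reads shared in the gamma cluster limit each of its single values.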
